A study of Mus musculus with 2 samples.

Results

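Transcripts of Smads and of receptors for bone morphogenetic proteins (BMPs) and activins were examined in the second polar body (PB2) and the zygote of the mouse. The group was set by gene name as Smad1, Smad2, Smad3, Smad4, Smad5, Smad7, Acvr1, Acvr2b, Bmpr1a and Bmpr2, and 9 of these 10 genes were found among the 11262 genes of the table. Smad7, which encodes an inhibitory Smad, was not analysed here. PB2 and zygote came from untreated C57BL/6 embryos (C57BL/6N in the study's methods) at the late one-cell stage, in which the zona pellucida was removed with acid and PB2 was detached by trypsin and pipetting. They were compared in the study to look for molecules of PB2 that could act on the embryo. Each of the 2 conditions is represented by 1 library, made from a pool of PB2s or zygotes by amplification of full-length cDNA, so the spread between samples is unknown, no test could be run and every difference below describes these 2 libraries. The depth behind the values is unknown as well, so no interval for counting error is given.

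BMPs, activins and the growth and differentiation factors made by the oocyte belong to the TGF-β superfamily. A ligand brings together type II and type I receptors, both serine/threonine kinases, and the type II receptor activates the type I receptor. The type I receptor then phosphorylates a receptor-regulated Smad (R-Smad) at serines at its extreme C-terminus. Smad1 and Smad5 are the R-Smads of the BMP branch, Smad2 and Smad3 those of the activin and TGF-β branch, and Smad4 is the common partner with which both kinds enter the nucleus. In the ovary this signaling links the oocyte and its granulosa cells, and after implantation it patterns the embryo.

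The 3' ends of the R-Smad coding sequences are shown because they encode the C-terminal serines that type I receptors phosphorylate. Each is the last 30 bases before the stop codon, from GENCODE M21 transcripts (GRCm38) with a consensus coding sequence. Capitals mark every serine codon among the last 4 codons, whether or not its serine is one that is phosphorylated. The coding end of Smad2, the other R-Smad of the group, is not printed.
Smad1: tcaccccacaatcctattTCATCCgtgTCT
Smad3: tccccgagcatccgctgtTCCAGTgtgTCT
Smad5: tctccgctgaaccccattTCTTCTgttTCA
In all 3 genes, 3 of the last 4 codons encode serine, and the codons chosen for it differ between the genes. Smad5 differed from Smad1 at 10 of these 30 bases and Smad3 at 14. Over the whole coding sequence Smad1 and Smad5 were identical at 77.2% of 1389 aligned bases, and Smad2 and Smad3 at 77.1% of 1278. No stretch of 50 bases was shared by the transcripts of either pair.

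Values are TPM, transcript abundances scaled to a fixed library total and adjusted for gene length, which allows levels of different genes to be set side by side. Libraries were compared by the log2 ratio, log2((PB2 TPM + 1)/(zygote TPM + 1)), in which the added 1 understates the difference of low genes. A gene was counted as higher in one library when it was at least 2-fold apart on that scale. All 9 genes had at least 1 TPM in one of the libraries and were among the 10645 genes compared. Gene positions are those of GENCODE M21 on GRCm38. Over all genes compared the log2 ratio had a median of 0.21, so a value centred on this median is given beside the log2 ratio of the Smads and receptors that passed 2-fold.

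Of the 9 genes, 4 (44.4%) passed 2-fold towards PB2, as did 18.9% of all genes compared, and 1 (11.1%) passed 2-fold towards the zygote, as did 8.09% of all. The genes higher in PB2 were Acvr2b, Smad1, Smad4 and Smad3, and the gene higher in the zygote was Bmpr2. The other 4, Bmpr1a, Smad5, Acvr1 and Smad2, stayed within 2-fold, each with the higher TPM in PB2. The median log2 ratio of the 9 genes was 0.63, and 0.42 after centring. Acvr2b, Smad1, Smad4 and Smad3 are also the genes of the group that the study labelled because they were upregulated in these same libraries, so their count is not independent evidence of a direction. They are all of the genes past 2-fold towards PB2, so setting them aside leaves 0 of the 5 remaining genes past it by construction. The median log2 ratio of these 5 was 0.32, which the same step lowers, so it only describes the remainder.

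**Figure D1:**
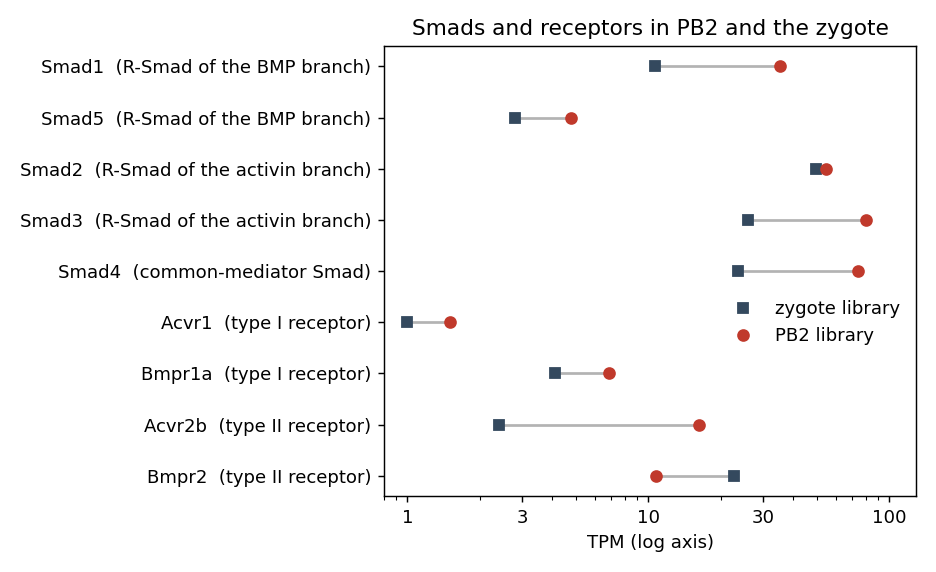
TPM of each gene in the zygote library (squares) and the PB2 library (circles) on a log axis, 1 library each, with the role of each gene in brackets. The widest gap is that of Acvr2b, from 2.4 to 16.2 TPM, Smad2 has nearly the same value in both libraries, and Bmpr2 alone lies lower in PB2.

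Among the R-Smads of the BMP branch, Smad1 (ENSMUSG00000031681, chr8:79338395-79399518, minus strand) had 10.7 TPM in zygotes and 35.1 TPM in PB2. The ratio was 3.28, and the rounding of the deposited values to 1 decimal allows 3.26 to 3.30. Its log2 ratio was 1.63, or 1.42 after centring, and 5.79% of all genes compared had a larger one. Smad5 (ENSMUSG00000021540, chr13:56703010-56742377, plus strand), which acts in parallel with Smad1, was scarcer, with 2.8 TPM in zygotes and 4.8 TPM in PB2. Its log2 ratio was 0.61, and 32.9% of the genes compared had a larger one. Smad1 thus outnumbered Smad5 3.82 to 1 in the zygote and 7.31 to 1 in PB2.

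Among the R-Smads of the activin branch, Smad3 (ENSMUSG00000032402, chr9:63646767-63757994, minus strand) had 25.9 TPM in zygotes and 80.3 TPM in PB2, a ratio of 3.10 with rounding limits of 3.09 and 3.11. Its log2 ratio was 1.60, or 1.39 after centring. Smad2 (ENSMUSG00000024563, chr18:76241580-76310963, plus strand) had 49.6 TPM in zygotes and 54.7 TPM in PB2. Its log2 ratio of 0.14 was near the median of all genes, and after centring it was -0.07. The order of this pair therefore differed between the libraries, with 0.52 Smad3 per Smad2 in the zygote and 1.47 in PB2.

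Smad4 (ENSMUSG00000024515, chr18:73639009-73703780, minus strand), the common mediator, had 23.7 TPM in zygotes and 74.3 TPM in PB2. Its ratio of 3.14 was close to those of Smad1 and Smad3, and its log2 ratio was 1.61, or 1.40 after centring. The 5 Smads came to a sum of 112.7 TPM in zygotes and 249.2 TPM in PB2, a ratio of 2.21. Smad2 made up 44.0% of this sum in the zygote and 22.0% in PB2. The shares of the others were 23.0% and 32.2% for Smad3, 21.0% and 29.8% for Smad4, 9.49% and 14.1% for Smad1, and 2.48% and 1.93% for Smad5, in the zygote and PB2 respectively. Smad2 was thus the most abundant Smad of the zygote library and the third of the PB2 library, behind Smad3 and Smad4. Summed by branch, there was 0.18 TPM of BMP R-Smads for each TPM of activin R-Smads in the zygote and 0.30 in PB2, so activin R-Smads were the more abundant kind in both libraries. Without replicates, it cannot be said which neighbours in these orders differ beyond their spread.

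**Figure D2:**
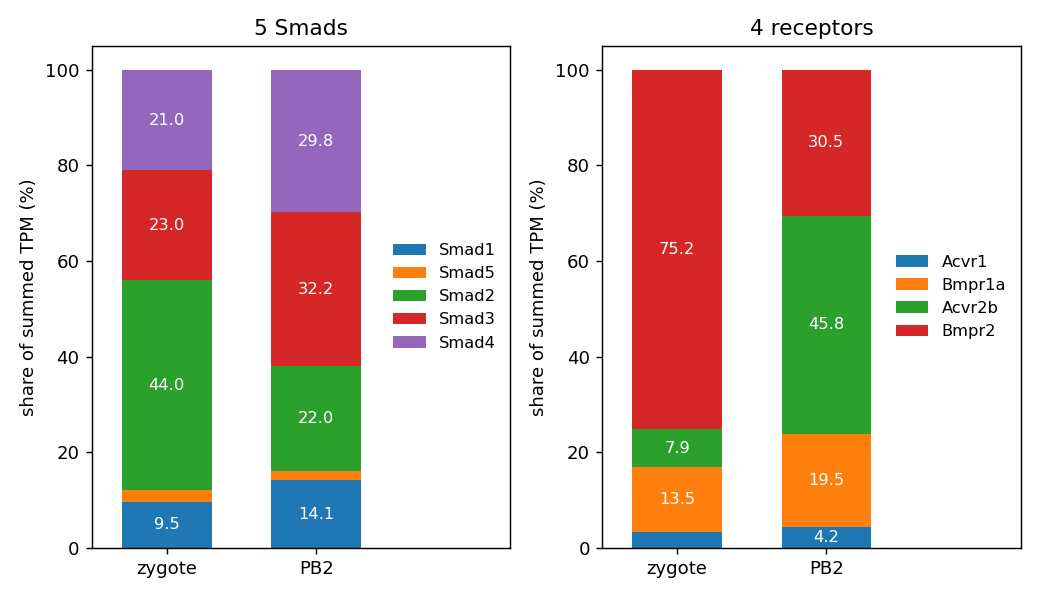
Share of the summed TPM (%) taken by each of the 5 Smads (left) and each of the 4 receptors (right) in the zygote and PB2 libraries, 1 library each. Smad2 holds 44.0% of the Smad sum in the zygote and 22.0% in PB2, and Bmpr2 holds 75.2% of the receptor sum in the zygote and 30.5% in PB2.

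The type II receptors stood at opposite ends of the group. Acvr2b (ENSMUSG00000061393, chr9:119402118-119434995, plus strand), which binds activins and several related ligands, had 2.4 TPM in zygotes and 16.2 TPM in PB2. The ratio of 6.75 has rounding limits of 6.59 and 6.91. Its log2 ratio of 2.34, or 2.13 after centring, was exceeded by 0.949% of the genes compared. Its level remained moderate, with 42.3% of the table above it in PB2 and 74.3% in the zygote. Bmpr2 (ENSMUSG00000067336, chr1:59763400-59879014, plus strand), the type II receptor for BMPs and for the oocyte factors Gdf9 and Bmp15, had 22.8 TPM in zygotes and 10.8 TPM in PB2. It was 2.11-fold higher in the zygote, with rounding limits of 2.10 and 2.13, and its log2 ratio of -1.01, or -1.22 after centring, lay just past the 2-fold threshold. A lower log2 ratio was found for 7.72% of the genes compared.

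The sequence before the start of Acvr2b is shown because this gene had the largest log2 ratio of the 9. The 190 bases before its GENCODE start are given on the plus strand, from the RefSeq window (GRCm38.p6) that runs from 250 bases before to 50 bases after the RefSeq start, and capitals mark a match to CAGAC, a core Smad-binding sequence, on either strand.
Acvr2b (chr9:119401928-119402117): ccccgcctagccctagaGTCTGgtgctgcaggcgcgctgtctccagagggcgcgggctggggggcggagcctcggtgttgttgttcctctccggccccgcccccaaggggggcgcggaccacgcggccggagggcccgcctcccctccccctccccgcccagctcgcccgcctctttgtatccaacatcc
The whole Acvr2b window held 1 match to CAGAC, which is found in 49.6% of the 32851 windows of the same length. The Bmpr2 window held 1 match to GGCGCC, a GC-rich sequence bound by Smads, which is found in 11.9%. Such matches were not particular to these receptors. The Bmpr1a window also held 1 match to GGCGCC, and windows of Smad5 held GGCGCC or CAGAC. The windows of Smad1, Smad3 and Acvr1 held neither sequence. The annotations place the start of Bmpr2 differently, and its RefSeq window begins 629 bases after the GENCODE start and so lies wholly within the GENCODE gene. The longer palindrome GTCTAGAC, found in 0.213% of windows, was in none of the windows of these genes. GC content was 73.3% in the Acvr2b window and 59.3% in the Bmpr2 window, against a median of 52.7% over all windows. These matches describe letters only, and binding was not measured.

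The type I receptors of the group, Bmpr1a and Acvr1, were found at low levels, and Acvr1 was the scarcest of the 9 genes in both libraries. Bmpr1a (ENSMUSG00000021796, chr14:34410734-34503341, minus strand), a BMP receptor also known as ALK3, had 4.1 TPM in zygotes and 6.9 TPM in PB2, for a log2 ratio of 0.63. An antisense gene, Gm17110, overlaps 290 bases of its exons, and reads of the pair cannot be told apart without strand. Acvr1 (ENSMUSG00000026836, chr2:58388644-58567157, minus strand), a type I receptor that also signals through the BMP R-Smads, had 1.0 TPM in zygotes and 1.5 TPM in PB2. At this level rounding alone allows any ratio between 1.38 and 1.63, and the log2 ratio was 0.32. Of the receptor genes in the group, Bmpr2 took 75.2% of the summed TPM in zygotes and 30.5% in PB2, and Acvr2b took 7.92% and 45.8%. The sum itself was 30.3 TPM in zygotes and 35.4 TPM in PB2, so the total was closer between the libraries than its parts.

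The log2 ratio of these genes moved with the GC content of their transcripts, as it did over the table. Over the 9 genes Spearman's rho of the log2 ratio with the GC content of the longest protein-coding transcript was 0.80, and over 10606 genes it was 0.44. Both are descriptions of 1 pair of libraries, in which all points share the same reads and amplification. The genes at the top of the order, Acvr2b, Smad1, Smad4 and Smad3, had GC contents of 54.4%, 51.5%, 49.4% and 53.1%, while Bmpr2 had 41.0%. When genes were divided into 10 equal bins by GC content, 30.5% of those in the bin of Acvr2b and Smad3 passed 2-fold towards PB2. The corresponding share was 22.7% for the bin of Smad1 and 16.1% for that of Smad4. These GC contents depend on the transcript chosen. The transcript with a consensus coding sequence has 64.0% GC for Acvr2b, and 56.3% for Acvr1 in place of 48.7%. At 64.0% Acvr2b would fall in the highest bin, where 47.3% of the genes passed 2-fold towards PB2. In the lowest bin, which holds Bmpr2, 19.8% of the genes passed 2-fold towards the zygote and 3.30% towards PB2. Bmpr1a, with 41.3% GC, belongs to the same bin as Bmpr2, and its log2 ratio was 0.63, within 2-fold.
With the trend on GC content removed, the log2 ratio was 1.72 for Acvr2b, 1.38 for Smad4, 1.24 for Smad1 and 1.08 for Smad3, each still past 2-fold, as were 9.08% of the 10606 genes. That of Bmpr2 became -0.73 and no longer passed, while Bmpr1a was at 0.90 and Smad5 at 0.70. The part of GC content in these differences was not tested.
The length of the longest protein-coding transcript ran the other way in the group, with a Spearman's rho of -0.73 over the 9 genes and 0.17 over the table. This depends on the transcript chosen. Transcripts with a consensus coding sequence have 2410 bases for Smad2 in place of 8089, and 2394 for Acvr1 in place of 3293. The longest transcript was that of Bmpr2, with 12899 bases, of which 8529 are 3' untranslated, and the shortest that of Acvr2b, with 3175 bases.

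**Figure D3:**
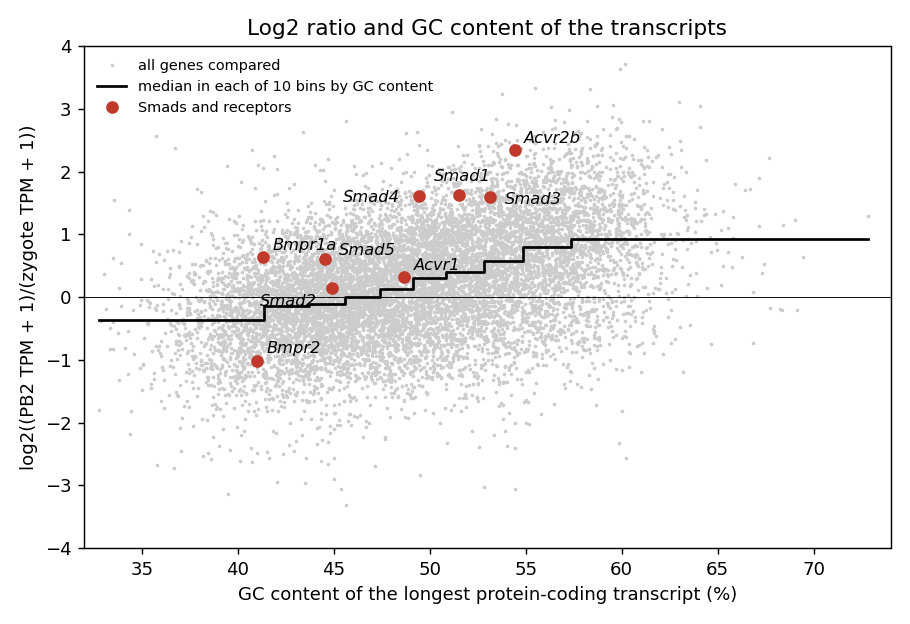
Log2 ratio of each gene compared against the GC content of its longest protein-coding transcript (%), with the black line at the median of each of 10 equal bins by GC content and the Smads and receptors in red. Acvr2b, Smad1, Smad3 and Smad4 lie above the line at 49.4% to 54.4% GC, and Bmpr2 lies below it at 41.0%.

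**Figure D4:**
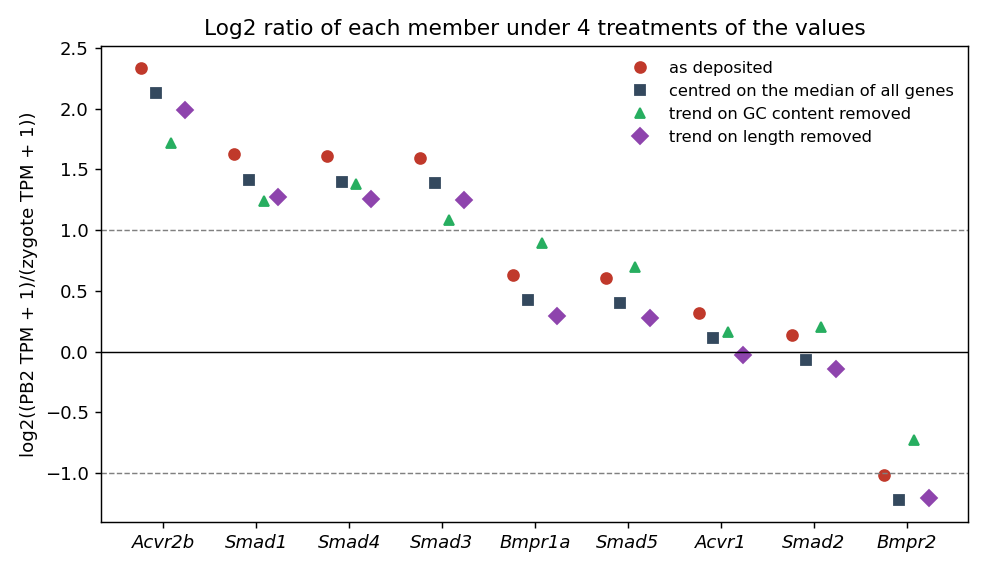
Log2 ratio of each gene as deposited (circles), centred on the median of all genes compared (squares), and with the trend on GC content (triangles) or transcript length (diamonds) removed, with dashed lines at 2-fold. Acvr2b, Smad1, Smad4 and Smad3 stay above the upper line in all 4 treatments, while Bmpr2 lies inside the lower line with the GC trend removed, at -0.73.

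The rest of the superfamily was described with a hand-written list of 90 other genes, of which 43 were in the table. At least 2-fold higher in PB2 were 8 of the 43 (18.6%), near the background of 18.9%, while 2 (4.65%) passed 2-fold towards the zygote. Their median was 0.44 on the log2 scale, or 0.23 after centring. After centring, 6 passed 2-fold towards PB2, without Ppm1a and Usp11, where 13% of all genes did, and the same 2 passed towards the zygote, where 12.1% did. With the GC trend removed, 3 passed towards PB2 (Rgmb, Ppm1a and Smurf1, 6.98% of the 43), where 9.08% of all genes did. The 2 genes higher in the zygote, Bmp5 and Usp9x, then no longer passed 2-fold, and the 1 that did was Ltbp2, at -1.11 in place of -0.22, where 11% of all genes did.

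The most abundant ligands were present far above the level of the receptors and Smads. Gdf9, an oocyte factor needed for follicle growth, had 1196 TPM in zygotes and 3299 TPM in PB2, for a log2 ratio of 1.46, or 1.25 after centring. Bmp15, its close relative, had 1747 and 1638 TPM, and Tgfb2 had 757 and 679 TPM. Bmp6 had 22.4 TPM in zygotes and 74.4 TPM in PB2, and Bmp5 had 122.6 and 53.1 TPM. Of the 7 ligands compared, 2 (Bmp6 and Gdf9) passed 2-fold towards PB2, and 1 (Bmp5) towards the zygote, against 18.9% and 8.09% of all genes. With the GC trend removed, none of these 3 passed, at 0.83 for Bmp6, 0.96 for Gdf9 and -0.88 for Bmp5.

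Among the other receptors and co-receptors, Rgmb, a BMP co-receptor, was the one of 6 past 2-fold, with 15.3 TPM in zygotes and 39.1 TPM in PB2. Bmpr1b, a type I receptor for BMPs, had 83.8 TPM in zygotes and 66.6 TPM in PB2, and Tgfbr3, a TGF-β co-receptor, 11.3 and 11.4 TPM. Of the summed TPM of all 8 type I and type II receptor genes of the table, Bmpr1b held 68.4% in the zygote and 59.3% in PB2. In the same sum Bmpr2 ranked next in the zygote with 18.6%, and Acvr2b ranked next in PB2 with 14.4%, against 1.96% in the zygote.

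Of the 23 intracellular regulators compared, 5 (21.7%) passed 2-fold towards PB2 and 1 (4.35%) towards the zygote, not far from the 18.9% and 8.09% of all genes. Smurf1, a ubiquitin ligase that targets BMP R-Smads, had 7.3 TPM in zygotes and 27.8 TPM in PB2, for a log2 ratio of 1.79, or 1.59 after centring. Ski, a corepressor that binds Smads, had 48.1 and 115.5 TPM. Fkbp1a, which binds type I receptors and holds them inactive, had 66.2 and 154.9 TPM, and Ppm1a, a phosphatase reported to act on R-Smads, 30.8 and 71.3 TPM. Usp11, a deubiquitinase, had 7.1 and 17.6 TPM, and Usp9x, a deubiquitinase of Smad4, had 70.0 TPM in zygotes and 29.0 TPM in PB2. With the GC trend removed, Ski (0.53), Fkbp1a (0.93), Usp11 (0.84) and Usp9x (-0.91) no longer passed 2-fold. The most abundant regulator, the deubiquitinase Usp15, had 547.8 and 498.4 TPM and the ubiquitin ligase Nedd4l 109.2 and 91.5 TPM.
None of the 4 extracellular regulators and 3 target genes compared passed 2-fold on the log2 scale with 1 TPM added. Twsg1, an extracellular BMP modulator, had 4.7 TPM in zygotes and 9.4 TPM in PB2. Fstl3, which binds activin, had 2.1 and 5.1 TPM, and Ltbp2, of the latent TGF-β binding protein family, 4.0 and 3.3 TPM. Bmper, the remaining extracellular regulator, had 0.6 and 1.3 TPM. Without the added 1, the ratio of PB2 to zygote was 2.43 for Fstl3, 2.17 for Bmper and 2 for Twsg1. That of Ltbp2 was 0.825. At these low levels the added 1 kept the first 3 of these genes below the threshold. Of the target genes, Id2 had 21.9 TPM in both libraries, Cdkn1a, a cell cycle inhibitor, had 8.3 and 9.1 TPM, and Id3, an immediate BMP target in many cells, 3.4 and 5.0 TPM.

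**Figure D5:**
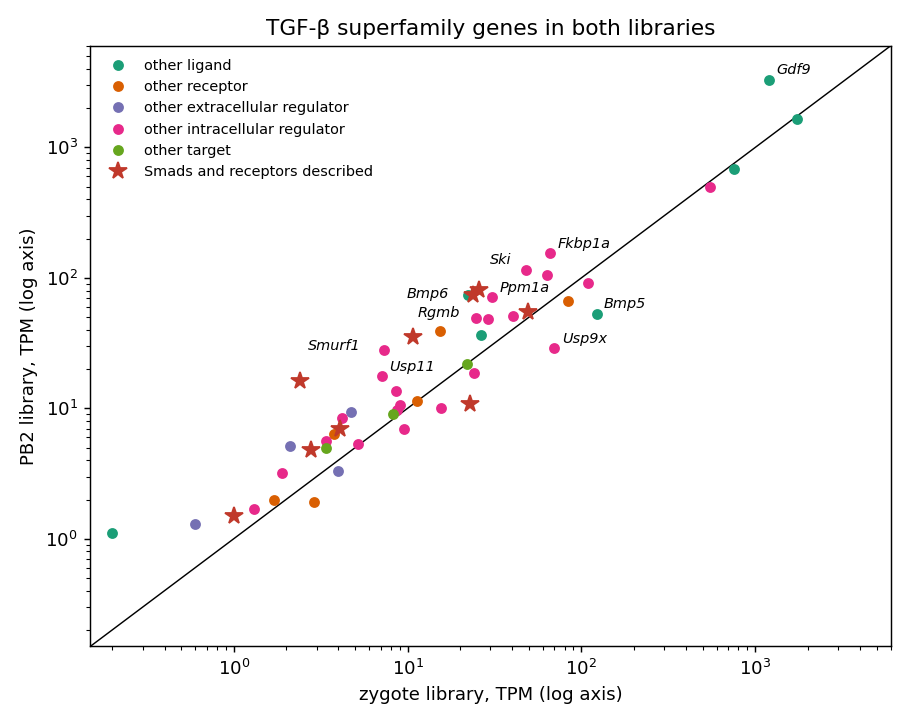
TPM in the PB2 library against TPM in the zygote library for the 43 other superfamily genes (circles, coloured by role) and the 9 Smads and receptors (stars), both axes logarithmic, with the line of equal values. Names are given for the 10 other genes at least 2-fold apart, 8 above the line and 2 below it.

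All 15 oocyte and egg markers listed were in the table, with a sum of 46505 TPM in zygotes and 37288 TPM in PB2. The lower sum in PB2 came from Dppa3, an oocyte and early embryo gene, without which the sums were 23943 and 29218 TPM. Of these 15 markers, 5 passed 2-fold towards PB2, with Zar1 (2.68) and Mos (2.29) highest on the log2 scale, and 1 (Dppa3, -1.48) towards the zygote. Over all genes compared, 18.9% passed 2-fold towards PB2 and 8.09% towards the zygote. Gdf9 and Bmp15, described above, are on this list as well. Of 15 cumulus and granulosa cell markers 3 were in the table, and their sum was 80.7 TPM in zygotes and 78.9 TPM in PB2. For the 8 sperm markers the numbers were 2 in the table with 20.8 and 22.6 TPM, and for the 4 blood markers 0. Of the 7 markers of zygotic genome activation 5 were in the table, with 13.3 and 6.0 TPM. Without Zscan4d, which had 8.6 TPM in zygotes and 0.7 TPM in PB2, the sums were 4.7 and 5.3 TPM. The part of such cells in the values above was not tested. Actb, a common reference gene, had 120.0 TPM in zygotes and 134.8 TPM in PB2. TPM gives proportions, so neither the RNA content of a PB2 nor that of a zygote is known, and fewer cells of a type and less RNA per cell cannot be told apart.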

How the data were processed

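mRNA profiles of PB2 and the zygote were analysed, with 1 library of each. Per the labels and supplementary methods, samples were lysed and amplified with the Vazyme N712 full-length kit, and libraries were made with the TD503 kit. The submitters' processing notes name CASAVA, HISAT2 2.0.4, HTSeq 0.6.1p1 and DESeq2 1.18.1, and the builds OryCun2.0 (rabbit) and GRCm38. Identifiers are mouse. The authors deposited TPM rounded to 1 decimal, and how TPM was made from counts is not given in the sources used here. The listed genes sum to 92.7% of the TPM of a complete library in the zygote and 89.8% in PB2, and 0 value columns were left over.

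Genes with at least 1 TPM in either library were compared with a pseudocount of 1, without a test. The members and gene lists were chosen with earlier results of these data known. Named were all members, and of the pathway list the genes past 2-fold, the 3 with the highest mean TPM in each role, and Bmper. GC content and length are those of the longest protein-coding transcript in GENCODE M21, found for 11221 of 11262 genes, and trends were removed by loess with a span of 0.3. Gene positions come from the same annotation, and windows around gene starts from RefSeq, used here for 7 members. The functions were tested on data made with known answers. Used were statsmodels 0.14.6 and biopython 1.88 under Python 3.11.15, with pandas 2.3.3, numpy 2.4.6, matplotlib 3.10.9 and scipy 1.17.1.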

Additional observations from a re-analysis of the deposited data

How the results depend on the processing

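No paired analysis was possible because there is only 1 library of PB2 and 1 of the zygote. A log2 ratio or median was taken as unchanged within 0.5, and a count within 1.5 times, since no spread is available. Of the values under the alternatives, 150 stayed within these limits and 19 moved. Part of this tally was fixed in advance, so it is no measure of robustness. A change of the filter on low values leaves the log2 ratio of a gene as it was. Centring shifts every log2 ratio by 0.21, below the limit of 0.5. None of Acvr2b, Smad1, Smad4, Smad3 and Bmpr2, the members past 2-fold, changed direction under an alternative tried. The log2 ratio ranged from 1.29 to 2.75 for Acvr2b, 1.24 to 1.71 for Smad1, 1.25 to 1.65 for Smad4, 1.08 to 1.63 for Smad3 and -1.22 to -0.73 for Bmpr2. Those of Smad2 (-0.14 to 0.30) and Acvr1 (-0.44 to 0.58) included both signs.

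With the GC trend removed, the log2 ratio of Smad3 was 1.08 and of Acvr2b 1.72. The change of Smad3 relative to Smad2 was 0.88 in place of 1.46. That of Smad1 relative to Smad5 was 0.54 in place of 1.02, which stayed within the limit. Of the 9 genes, 0 were then higher in the zygote in place of 1. The counts over the other superfamily genes were 3 in PB2 and 1 in the zygote. Of all genes, 9.08% then passed towards PB2 and 11% towards the zygote. With GC content read from the CCDS transcripts instead, an alternative chosen after seeing the data, Acvr2b (64.0% GC in place of 54.4%) was at 1.29, Acvr1 at -0.44 and Smad3 at 1.08. Again 0 of the 9 genes were higher in the zygote, and no share over all genes is given for this alternative. With the length trend removed, 4 of the 43 other superfamily genes were higher in PB2, where 12.1% of all genes were. With pseudocounts of 0.1 and 0.01 there were 13 each, where 24.6% and 24.7% of all genes were. At 1.5-fold there were 17 in PB2, where 34.2% of all genes passed. At 4-fold there were 0 in PB2 and 0 in the zygote, where 2.48% and 0.695% of all genes passed. Of the 9 genes, 1 (Acvr2b) passed 4-fold in PB2 and 0 in the zygote. With at least 5 TPM required, 7 of the genes were compared, without Smad5 and Acvr1, and their median was 1.60. The cause of the changes beyond these definitions was not tested. Over all genes, centring turned 2009 higher in PB2 and 861 in the zygote (70.0% in PB2) into 1383 and 1291 (51.7%), and removal of the GC trend gave 963 and 1162 (45.3%). Depth is unknown, so the counting error of genes of a few TPM, Acvr1, Smad5 and Bmpr1a among them, cannot be given.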
